A study of Mus musculus with 24 samples.

Results

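Cathepsins are proteases of the lysosome, and 10 of their genes (Ctsa, Ctsb, Ctsc, Ctsd, Ctsf, Ctsh, Ctsk, Ctsl, Ctss and Ctsz) were followed in the left ventricle of hypertensive and control mice. They were taken by gene symbol and make up 10 of the 14912 genes in the deposited table. Each had a mean of at least 0.1 FPKM, so all 10 entered the test over 14026 genes. Ventricles came from male wild-type (WT) C57BL/6J mice whose age is not given in the sources used here. The hypertensive-LVH group consisted of 12 mice that received ANG II, the peptide hormone that raises blood pressure, from an osmotic mini-pump under the skin (1500 ng/kg/min, 7 days). In the control group, 12 mice received saline in the same way and over the same time, and in both groups the heart was flushed with saline before the ventricle was taken. The methods count more RNA-seq samples in each group, and the others were not analysed here. The oligo(dT)-selected RNA of each ventricle gave 1 value per gene, in FPKM, which is a count of fragments scaled by transcript length and by the mapped fragments of the sample.

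Most cathepsins are cysteine proteases of the papain fold, while cathepsin D is an aspartic protease and cathepsin A a serine carboxypeptidase. They are made as inactive precursors, are carried to the lysosome by mannose 6-phosphate receptors, and become active when the lysosome is acidified by the vacuolar ATPase. In the heart they take part in protein turnover and autophagy of cardiomyocytes, and those secreted by macrophages and fibroblasts can degrade collagen and elastin. Cystatins hold secreted and leaked cysteine cathepsins in check.

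Of the deposited values 2741 (0.766%) were below 0, which plain FPKM cannot be. Between 218 and 546 genes were exactly tied in pairs of samples of 1 group among samples 1 to 3, 4 to 6, 7 to 9 or 10 to 12, against at most 12 in other pairs of a group. The samples therefore form 4 sets of 3 ANG II and 3 control samples, in which each gene had been shifted and scaled. Deposited levels of 1 set against another depend on this step, and so do ranges and overlaps over all samples. What the sets were in the laboratory is not given in the sources used here. The values of a sample summed to 460715 to 515185 with ANG II and to 482319 to 567727 in controls, and the number of fragments behind them is not known. Markers of cardiomyocytes were high in every sample, with sums over 8 genes of 34712 to 50814 FPKM in ANG II samples and 45821 to 59153 FPKM in control samples.

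The genes lie apart in the genome, except Ctsk and Ctss. These neighbours lie on the same strand of chromosome 3, 17423 bp apart, with 0 protein-coding genes between them. In RefSeq promoter windows of the mouse genome GRCm38.p6, which run from 250 bases before a start to 49 bases after it, 8 of the 10 genes were found, with 9 windows. Ctsb and Ctsh were not among them. The windows were searched on both strands for CACGTG, the E-box read by transcription factors of the MITF and TFE family that switch on lysosomal genes, for its longer form TCACGTGA, which holds CACGTG and overlaps it, and for GAGGAAG, the letters of the PU box read by the myeloid factor PU.1, which reads CTTCCTC on the other strand. CACGTG was in the windows of Ctsa, Ctsd, Ctsl and Ctsf, that is in 4 of 9, and in 7.15% of all 32851 windows. TCACGTGA was in those of Ctsa and Ctsd, and in 0.974% of all windows. GAGGAAG was in those of Ctsk, Ctss and Ctsc, and in 13.6% of all windows. A match is only a run of letters and does not show that a factor is bound.

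Stretches of 4 of these promoters are shown because they belong to the neighbours Ctss and Ctsk, which had the largest increases, to Ctsd, the most abundant member, and to Ctsf, the 1 member that fell. They are read 5′ to 3′ on the strand of the gene, with the searched motif of each in capitals (CACGTG for Ctsd and Ctsf, the PU box on either strand for Ctss and Ctsk). The Ctss stretch is chr3:95526666-95526791 (+), the Ctsk stretch chr3:95498960-95499209 (+), the Ctsd stretch chr7:142388039-142388077 (-) and the Ctsf stretch chr19:4855015-4855129 (+).
Ctss: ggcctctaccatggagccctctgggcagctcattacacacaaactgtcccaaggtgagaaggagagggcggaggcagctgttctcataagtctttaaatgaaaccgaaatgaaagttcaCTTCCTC
Ctsk: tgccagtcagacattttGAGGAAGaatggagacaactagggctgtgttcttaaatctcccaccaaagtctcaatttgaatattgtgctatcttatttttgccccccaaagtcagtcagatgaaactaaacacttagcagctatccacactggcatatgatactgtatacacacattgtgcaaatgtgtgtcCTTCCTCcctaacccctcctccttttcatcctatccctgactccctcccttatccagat
Ctsd: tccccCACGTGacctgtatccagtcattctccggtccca
Ctsf: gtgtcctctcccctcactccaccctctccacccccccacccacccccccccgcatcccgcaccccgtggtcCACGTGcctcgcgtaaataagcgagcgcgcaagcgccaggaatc

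In these stretches, CTTCCTC of Ctss begins 1 base before the start and runs to 5 bases after it, while Ctsk holds the motif once on each strand. Ctsd and Ctsf each show CACGTG, which Ctsd holds a second time closer to its start.

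Cathepsin genes rose more often than they fell. Of the 10 genes, 7 (Ctss, Ctsk, Ctsz, Ctsh, Ctsl, Ctsa and Ctsd) rose and 1 (Ctsf) fell past an adjusted p-value of 0.05, with limma on log2(FPKM + 1) and Benjamini-Hochberg adjustment over all genes tested. Over all genes tested, 20.9% rose and 12.6% fell by the same rule. Ctss, Ctsk and Ctsz also exceeded a log2 fold change of 0.5, and 4.52% of all genes met both criteria in that direction. In the other direction 0 of the 10 and 1.4% of all genes did so. The median log2 fold change of the 10 genes was 0.27, against 0.05 for all genes. Ranges of the 2 groups overlapped for each of the 10, while 0.271% of all genes were higher and 0.485% lower in every ANG II sample than in every control sample. The count depends on the sets: without samples 4 to 6 of each group only Ctss, Ctsk and Ctsf were past the adjusted p-value, when 8.4% of all genes rose and 11.7% fell, and the median log2 fold change was 0.19 against 0.01. Without samples 7 to 9, 5 were past it. In bulk tissue, more cells of a type and more RNA per cell cannot be told apart. Each fold change given here is on the log2(FPKM + 1) scale, with negative values set to 0. The added 1 understates changes at low levels. Where the shift of a set left control values near or below 0, the log2 fold change can instead be large. That of Ctsk was 1.17 with all samples and 0.44 without samples 4 to 6.

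**Figure D1:**
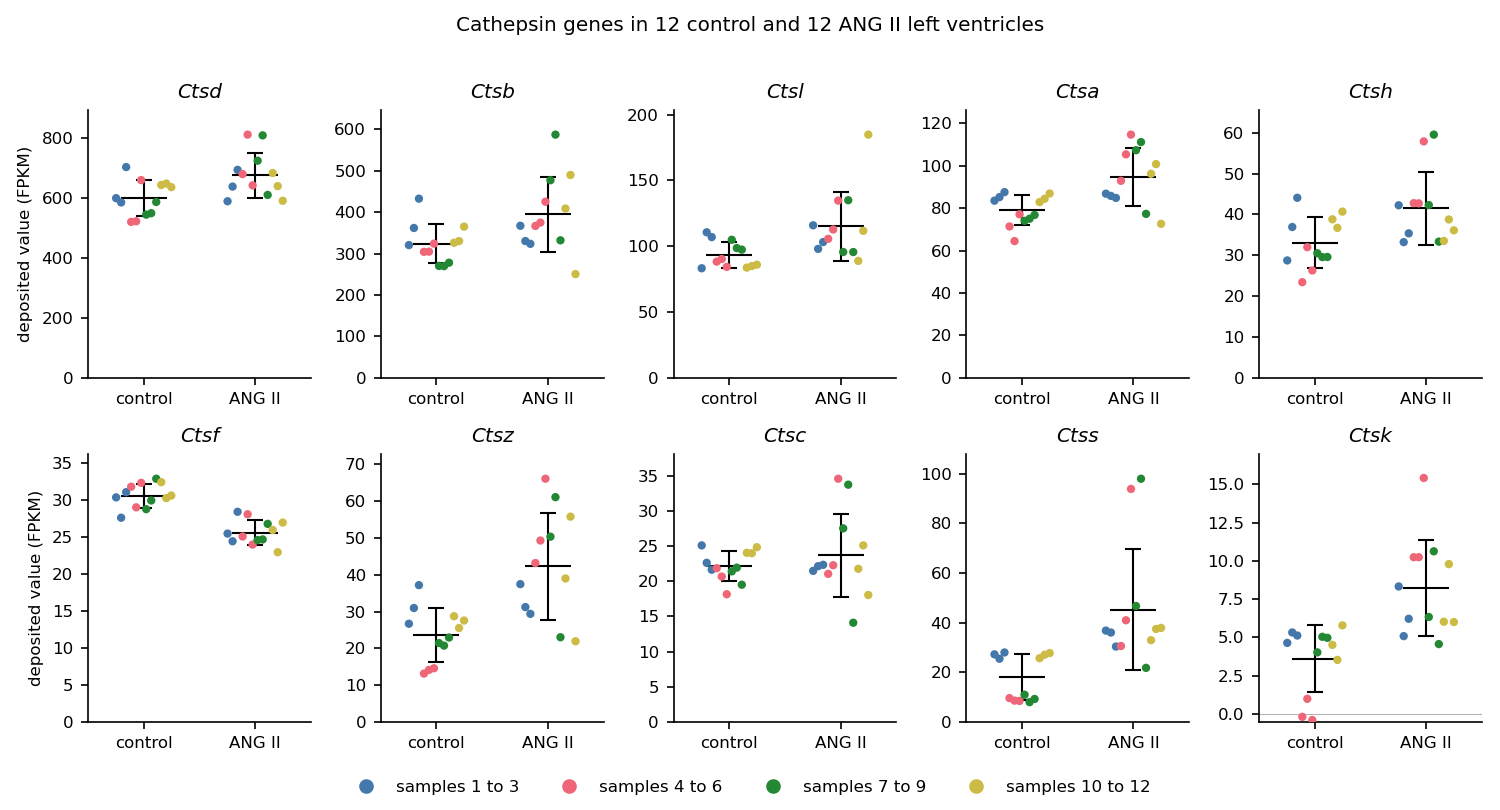
Deposited FPKM values of the 10 cathepsin genes (vertical axes) in 12 control and 12 ANG II samples, coloured by set, with the mean as a long line and the SD as error bars. For Ctss, 11 of 12 ANG II samples lie above the highest control sample (28.0 FPKM), while 10 of 12 lie below the lowest control sample (27.6 FPKM) for Ctsf.

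Among the cysteine cathepsins, the largest change was that of Ctss (ENSMUSG00000038642, chromosome 3, 95526786 to 95556403), which encodes the enzyme that trims the invariant chain from MHC class II molecules and stays active at neutral pH. Values with ANG II ran from 21.8 to 98.0 FPKM (median 37.1), and control values ran from 7.96 to 28.0 FPKM (median 18.2). All ANG II samples exceeded the control median and all but sample 9, at 21.8 FPKM, exceeded every control sample. Means were 45.3 ± 24.4 FPKM (SD, n = 12) and 18.0 ± 9.31 FPKM (SD, n = 12), a ratio of 2.52. The log2 fold change was 1.33 ± 0.27 (standard error, limma, adjusted p = 6.13e-04). Deposited control values fell into separate levels by set. Those of samples 4 to 9 lay between 7.96 and 10.9 FPKM, and those of samples 1 to 3 and 10 to 12 between 25.4 and 28.0 FPKM. ANG II means ran the other way, at 34.4, 55.1, 55.5 and 36.1 FPKM in order of the sets. Such levels depend on the shift of each set, so they are not measured levels of the mice. In every set, all 3 ANG II samples exceeded all 3 control samples as deposited. The log2 difference was 0.34, 2.34, 2.21 and 0.41 in order of the sets. Before the shift and scaling, the samples of the 2 groups overlapped in samples 1 to 3 (difference 3.98 FPKM, pooled SD 2.96 FPKM). Without samples 4 to 6 the log2 fold change was 0.99 ± 0.28 (limma, adjusted p = 0.0172).

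Ctsk (ENSMUSG00000028111, chromosome 3, 95499256 to 95509362) encodes a strong collagenase best known from the osteoclast. Values of the hypertensive-LVH group ran from 4.56 to 15.4 FPKM (median 7.32), and those of the control group from -0.410 to 5.78 FPKM (median 4.57). Of the ANG II samples, 10 exceeded the highest control sample. As deposited, control samples 4 to 6 stood apart, at -0.202, 0.976 and -0.410 FPKM, whereas the other 9 lay between 3.52 and 5.78 FPKM. This distance also depends on the shift of each set. The means were 8.23 ± 3.14 FPKM (SD, n = 12) and 3.60 ± 2.20 FPKM (SD, n = 12). The log2 fold change of 1.17 ± 0.31 (limma, adjusted p = 0.00529) was 0.44 ± 0.13 (limma, adjusted p = 0.0190) without samples 4 to 6. By set, the log2 difference was 0.30, 3.34, 0.46 and 0.55, and that of samples 4 to 6 rests on 2 negative values set to 0.

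Ctsz (ENSMUSG00000016256, chromosome 2, 174427493 to 174439039), a carboxypeptidase also called cathepsin X, ran from 21.9 to 66.1 FPKM (median 41.1) in the hypertensive-LVH group. In the control group it ran from 13.1 to 37.2 FPKM (median 24.2). The groups overlapped, with 8 ANG II samples above the highest control sample, and means were 42.3 ± 14.6 and 23.6 ± 7.31 FPKM (SD, n = 12 each). Its log2 fold change was 0.80 ± 0.19 (limma, adjusted p = 0.00213), and the differences by set were 0.05, 1.83, 0.90 and 0.40. Control samples 4 to 6 were again the lowest as deposited, at 13.1 to 14.6 FPKM. Without samples 4 to 6 the log2 fold change of 0.45 was not past the threshold (limma, adjusted p = 0.0759).

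Ctsh and Ctsl rose by less. Ctsh (ENSMUSG00000032359, chromosome 9, 90054152 to 90076089), an aminopeptidase, ran from 33.2 to 59.5 FPKM (median 40.5) with ANG II and from 23.4 to 44.1 FPKM (median 31.2) with saline. Every ANG II sample exceeded the control median, and 2 exceeded every control sample. The log2 fold change of Ctsh was 0.31 ± 0.11 (limma, adjusted p = 0.0249). Ctsl (ENSMUSG00000021477, chromosome 13, 64359337 to 64370890), an endopeptidase of bulk protein turnover, ran from 88.8 to 185 FPKM (median 109) with ANG II and from 83.3 to 111 FPKM (median 89.3) with saline. Of the ANG II samples 6 exceeded the highest control sample, and 1, ANG II sample 12, stood far above the rest at 185 FPKM. For Ctsl the log2 fold change was 0.28 ± 0.09 (limma, adjusted p = 0.0193). Neither gene was past the threshold without samples 4 to 6 (limma, adjusted p = 0.326 for Ctsh and 0.152 for Ctsl), nor Ctsh without samples 7 to 9 (limma, adjusted p = 0.137), nor Ctsl without samples 10 to 12 (limma, adjusted p = 0.0686).

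Ctsb and Ctsc did not pass the test. Ctsb (ENSMUSG00000021939, chromosome 14, 63122462 to 63145923), an endopeptidase and the second most abundant member, ran from 250 to 587 FPKM (median 371) in the hypertensive-LVH group. In the control group it ran from 270 to 433 FPKM (median 322). Its log2 fold change was 0.26 ± 0.10, with a 95% interval from 0.05 to 0.48 (limma, adjusted p = 0.0550). Leaving out ANG II sample 2, 3, 9 or 12 or control sample 2 or 3 brought it past the threshold, with the smallest adjusted p without ANG II sample 12 (limma, 0.0119). Ctsc (ENSMUSG00000030560, chromosome 7, 88278085 to 88310888), the dipeptidyl peptidase that activates granule serine proteases of leukocytes, ran from 14.1 to 34.6 FPKM (median 22.2) with ANG II and from 18.1 to 25.1 FPKM (median 21.9) with saline. ANG II samples lay on both sides of the controls, 4 above the highest and 2 below the lowest. Its log2 fold change was 0.06 ± 0.10, with a 95% interval from -0.15 to 0.27 (limma, adjusted p = 0.658).

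Ctsf was the only member of the 10 to fall. Ctsf (ENSMUSG00000083282, chromosome 19, 4855130 to 4860918) encodes a cysteine protease with a long propeptide that also processes the invariant chain. The ANG II samples ran from 22.9 to 28.4 FPKM (median 25.2) and the control samples from 27.6 to 32.8 FPKM (median 30.5). No ANG II sample reached the control median, 10 lay below the lowest control sample, and 11 control samples lay above the highest ANG II sample. Means were 25.6 ± 1.67 and 30.6 ± 1.61 FPKM (SD, n = 12 each). The log2 fold change was -0.25 ± 0.04 (limma, adjusted p = 2.77e-05). By set the log2 difference was -0.18, -0.26, -0.26 and -0.29, and the log2 fold change was -0.24 ± 0.04 without samples 4 to 6 (limma, adjusted p = 9.99e-04). As deposited, Ctsf was thus lower in all 4 sets, as were 12.8% of all genes. In the same values 5 members (Ctss, Ctsk, Ctsz, Ctsl and Ctsa) were higher in all 4, as were 21.8% of all genes. Before the shift and scaling, Ctsf was still lower in all 4, but Ctsz (-4.68 FPKM) and Ctsa (-6.12 FPKM) were lower in samples 1 to 3. There all 3 ANG II samples of Ctsa lay below all 3 control samples.

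The aspartic protease and the serine protease both rose. Ctsd (ENSMUSG00000007891, chromosome 7, 142375911 to 142388038), the main aspartic protease of the lysosome, ran from 590 to 813 FPKM (median 662) with ANG II and from 521 to 704 FPKM (median 594) with saline. Its log2 fold change was 0.17 ± 0.06 (limma, adjusted p = 0.0358), and 10 of 12 ANG II samples exceeded the control median. This call was lost when 1 of 7 samples was left out, ANG II sample 5, 7 or 8 or control sample 4, 5, 7 or 8 (limma, adjusted p from 0.0517 to 0.0682), with a term for the set (0.0592), under median-ratio scaling (0.178), and without samples 4 to 6 (0.231) or 7 to 9 (0.222). Ctsa (ENSMUSG00000017760, chromosome 2, 164832873 to 164841032), the carboxypeptidase that protects beta-galactosidase and neuraminidase in the lysosome, ran from 72.6 to 115 FPKM (median 94.5) with ANG II and from 64.5 to 87.5 FPKM (median 80.0) with saline. Of the ANG II samples 7 exceeded every control sample, and the log2 fold change was 0.25 ± 0.07 (limma, adjusted p = 0.00808). It was 0.15 without samples 4 to 6 (limma, adjusted p = 0.163) and 0.21 without samples 7 to 9 (limma, adjusted p = 0.0545). Exons of Ctsa overlap the genes Neurl2 (mean 18.3 FPKM) and Pltp (mean 29.8 FPKM) on the other strand, and those of Ctsd overlap the gene model Gm49369 on the same strand. Exons of Ctsb overlap Fdft1 and those of Ctsz overlap Nelfcd, both on the other strand. Whether counting used strand is not given in the sources used here.

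**Figure D2:**
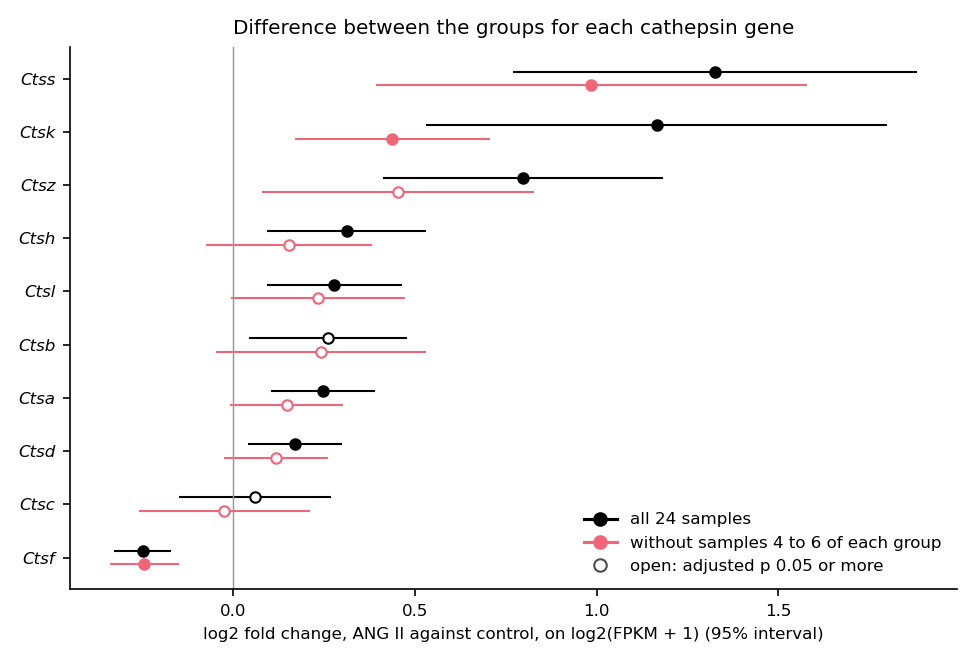
Log2 fold change on the log2(FPKM + 1) scale with its 95% interval (horizontal axis) for each cathepsin gene, over all 24 samples (black) and without samples 4 to 6 of each group (red), with open points where the adjusted p was 0.05 or more. Ctss moved from 1.33 to 0.99, Ctsk from 1.17 to 0.44 and Ctsf from -0.25 to -0.24.

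FPKM is given per transcript length, so the levels of the genes can be set in order. The 10 genes together summed to 1468 ± 199 FPKM with ANG II and to 1228 ± 124 FPKM with saline (SD, n = 12 each). Ctsd and Ctsb held 73.0% and 75.3% of these sums. In the control group the order of mean levels was Ctsd, Ctsb, Ctsl, Ctsa, Ctsh, Ctsf, Ctsz, Ctsc, Ctss and Ctsk. The ranges of neighbours in this order did not overlap between Ctsd and Ctsb, Ctsb and Ctsl, Ctsa and Ctsh, and Ctss and Ctsk, and the other neighbours overlapped. Ctss held place 9 in the control group, a place that depends on the shift of each set. Its control means were 26.9, 8.88, 9.38 and 26.8 FPKM in order of the sets, and Ctsc was the higher in 6 of 12 control samples. In the hypertensive-LVH group, Ctss held place 5, and the order was Ctsd, Ctsb, Ctsl, Ctsa, Ctss, Ctsz, Ctsh, Ctsf, Ctsc and Ctsk. There the ranges of Ctsd and Ctsb, Ctsb and Ctsl, and Ctsh and Ctsf did not overlap. Ctss and Ctsz, its next neighbour in that order, could not be separated, with Ctss the higher in 5 of 12 samples.

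Differences varied between the sets for some genes. The set-by-group term was past the threshold for Ctsk (limma F test, adjusted p = 6.85e-05), Ctss (0.0153) and Ctsz (0.0308), and for 7.49% of all genes. For Ctsh the adjusted p was 0.0582, and for Ctsf 0.873. The median log2 difference of all genes was -0.01, 0.18, -0.02 and 0.03 in the 4 sets. An exact permutation test of the log2 difference that kept every sample in its set (two-sided, 160000 relabelings, unadjusted) gave p = 1.25e-05 for Ctss, the smallest it can give. The same exact test gave p = 2.5e-05 for Ctsf, 3e-04 for Ctsk, 0.00278 for Ctsz, 0.00508 for Ctsa, 0.00524 for Ctsl, 0.016 for Ctsh, 0.0175 for Ctsd, 0.0399 for Ctsb and 0.604 for Ctsc.

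Because plain FPKM has steps of 0.01, the factor by which a gene was scaled in a set, and with it the difference in that set before the adjustment, could be recovered for all 10 genes. Offsets between sets could not. Before the adjustment, the mean difference within sets was 28.4 FPKM for Ctss (exact permutation test within sets, p = 3.75e-05), 4.73 FPKM for Ctsk (p = 4.25e-04), 17.8 FPKM for Ctsz (p = 0.0054) and -4.86 FPKM for Ctsf (p = 5e-05). All 4 kept the direction of the deposited values. For Ctsl it was 24.8 FPKM (exact p = 0.00694), for Ctsa 14.0 FPKM (exact p = 0.0075), for Ctsd 80.0 FPKM (exact p = 0.0303) and for Ctsh 7.40 FPKM (exact p = 0.0383). Ctsb and Ctsc changed places around 0.05, Ctsb at 71.8 FPKM (exact p = 0.0784, against 0.0361 as deposited) and Ctsc at 3.44 FPKM (exact p = 0.0486, against 0.450 as deposited). Of 40 differences within a set, 6 had another sign before the adjustment. In samples 1 to 3 only Ctsl, Ctss and Ctsk were then above 0, against 7 genes as deposited. In that set Ctsz differed by -4.68 FPKM, Ctsa by -6.12 FPKM and Ctss by 3.98 FPKM, against 41.7, 32.0 and 47.6 FPKM in samples 4 to 6.

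**Figure D3:**
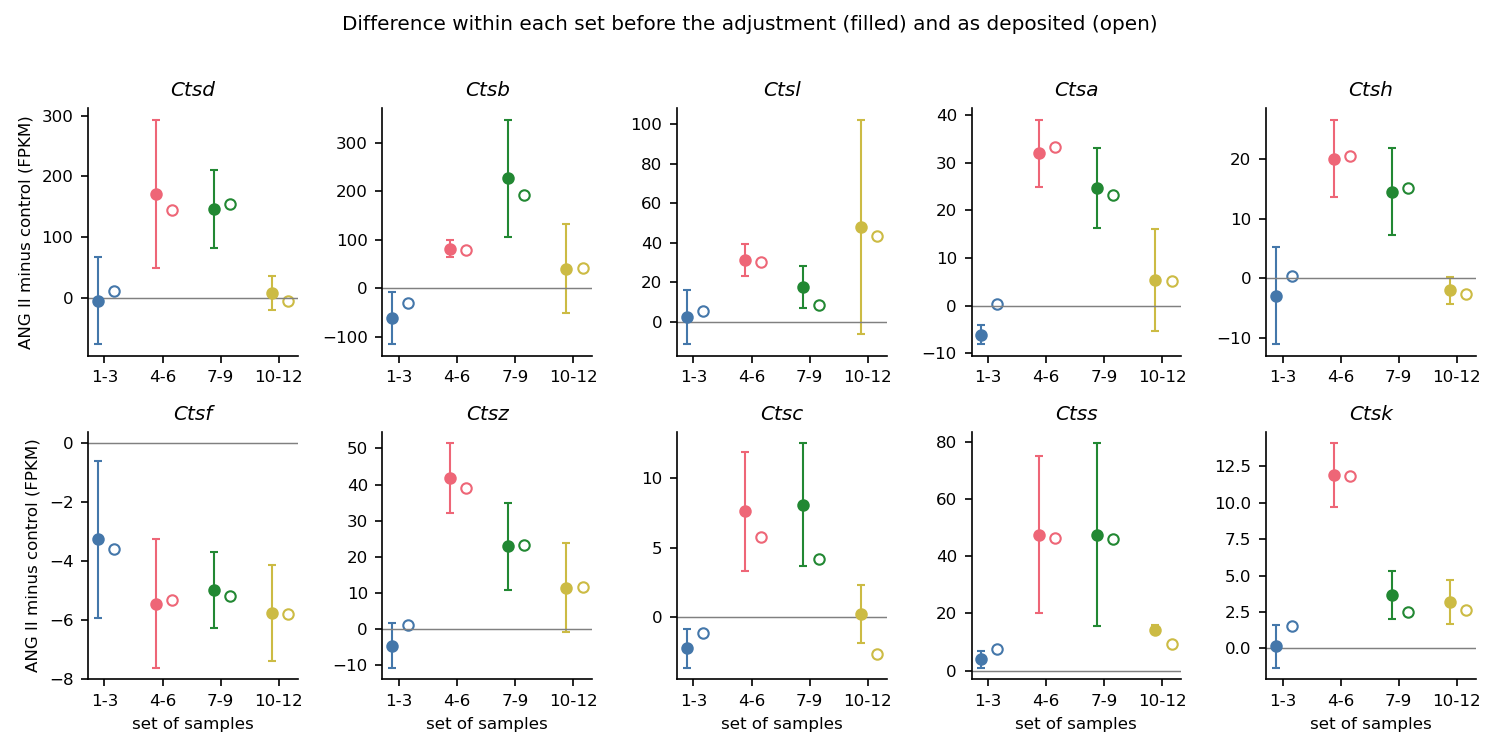
Difference of mean FPKM, ANG II minus control, in each set of 3 and 3 samples (horizontal axis), before the adjustment (filled, bars are the pooled SD of the samples in the set) and as deposited (open). Ctsf is below 0 in all 4 sets at -3.25 to -5.77 FPKM, and Ctsk is close to 0 in samples 1 to 3 (0.153 FPKM) and highest in samples 4 to 6 (11.9 FPKM).

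Markers of other cell types moved with the cathepsins. Over all genes 20.9% rose and 12.6% fell by the limma test, and 8.4% and 11.7% without samples 4 to 6. Of 12 macrophage markers, 11 rose and 0 fell by the limma test, led by Cd68 (log2 fold change 0.92) and Itgam (0.84), and 2 rose without samples 4 to 6. The list summed to 352 to 1090 FPKM in ANG II samples and to 272 to 622 FPKM in control samples. Fibroblast markers rose in 4 of 8 cases and none of them fell, with Col1a1 (2.77) and Col3a1 (2.63) in front, and 1 rose without samples 4 to 6. Their sums ranged from 708 to 2639 FPKM and from 25.1 to 1017 FPKM, and the 3 lowest control sums came with negative collagen values. Cardiomyocyte markers fell in 5 of 8 cases, led by Tnni3 (-0.63) and Myl2 (-0.50), and 0 rose. When samples 4 to 6 were left out, 3 fell. No marker of these lists was at or below 0 in all samples.

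Relations of each gene with the mean log2 level of the macrophage, fibroblast and cardiomyocyte lists were computed over 24 samples, first with the mean of each group removed and then with the mean of each group in each set removed. Of 30 relations, 21 by Spearman's rho and 22 by Pearson's r were past a Benjamini-Hochberg adjusted p of 0.05 (permutation test, 100000 resamples) in the first form, and 12 and 15 in the second. Samples were exchanged within each group in the first form, and only within each group of a set in the second. Because several genes fell into levels by set, the second form is given first. Ctss followed the macrophage list with r = 0.837 (permutation p = 0.00835, adjusted 0.0228) and rho = 0.646 (permutation p = 0.0111, adjusted 0.0494), and r was 0.646 without the 2 samples farthest from the median. For Ctsz these values were r = 0.885 (permutation p = 0.0039, adjusted 0.0190), rho = 0.698 (permutation p = 0.0173, adjusted 0.0494) and 0.793. With group means alone removed, r was 0.882 for Ctss and 0.919 for Ctsz. Ctsa, Ctsb and Ctsc also followed the macrophage list by both measures in both forms. Ctsh, Ctsk and Ctsd did so only with group means removed, and Ctsl (r = 0.01) and Ctsf (r = -0.44) in neither.

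The strongest relation with fibroblast markers was that of Ctsk, with r = 0.871 (permutation p = 1.1e-04, adjusted 0.0033) and rho = 0.813 (permutation p = 6e-05, adjusted 0.0018) within sets, and r = 0.819 without the 2 farthest samples. Without samples 4 to 6, where 3 control samples lay far below the others on both measures, r with group means removed was 0.917. Past the threshold by both measures, Ctsz (r = 0.770), Ctsh (0.767), Ctsc (0.755) and Ctsb also followed the fibroblast list within sets. By r alone Ctss followed it (0.701) and Ctsf ran against it (-0.537, permutation p = 0.0218, adjusted 0.0436). Ctss (r = -0.757) and Ctsh (-0.711) ran against the cardiomyocyte list within sets by both measures, and Ctsk (-0.653) by r alone. Ctsf ran with the cardiomyocyte list at r = 0.481 (permutation p = 0.0423, adjusted 0.0778) and rho = 0.496 (permutation p = 0.0534, adjusted 0.0890) within sets, which did not pass the threshold. With group means removed its values were r = 0.464 (permutation p = 0.0337, adjusted 0.0460) and rho = 0.339 (permutation p = 0.125, adjusted 0.144), and r was 0.288 without the 2 farthest samples. What part these cell types had in the differences between the groups was not tested.

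**Figure D4:**
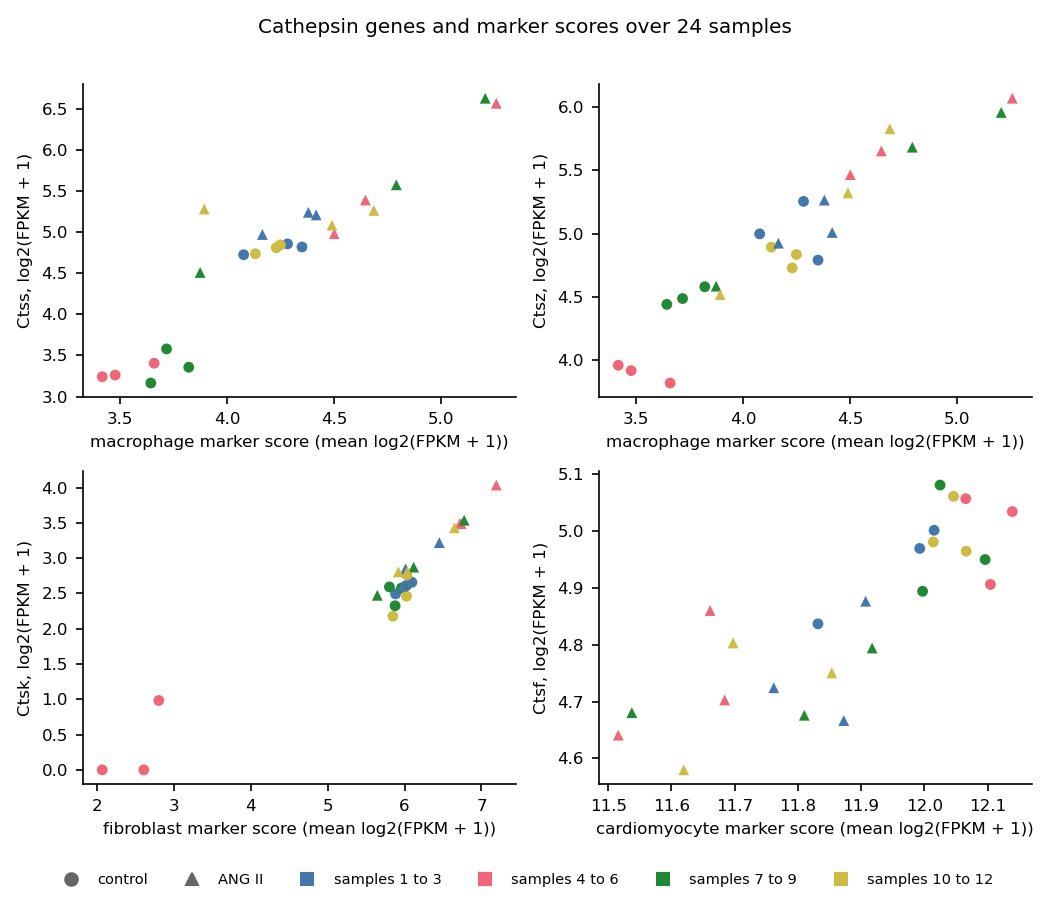
Log2(FPKM + 1) of Ctss, Ctsz, Ctsk and Ctsf (vertical axes) against the mean log2(FPKM + 1) of macrophage, fibroblast or cardiomyocyte markers (horizontal axes) in 24 samples, with circles for control, triangles for ANG II and colours for the sets. As deposited, control samples 4 to 6 lie far below the others for Ctsk and the fibroblast markers. Within sets r was 0.871 for that pair and 0.481 for Ctsf and the cardiomyocyte markers.

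Most cathepsin genes also ran together from sample to sample. With group means removed, r between members over 24 samples had a median of 0.616 for the 36 pairs without Ctsf, 33 of them above 0, with Ctsz and Ctsa the closest (0.920). Those below 0 were the pairs of Ctsl with Ctsb (-0.141), Ctsd (-0.151) and Ctsa (-0.076), and the highest r of Ctsl was 0.343, with Ctsh. For the 9 pairs with Ctsf the median was -0.283, and 1 was above 0. When the means of each group in each set were removed, Ctsb and Ctsz were the closest (0.957), with Ctsz and Ctsa at 0.910. Ctsk and Ctsd went from 0.268 to -0.007. All pairs share the same libraries and sets, and pairs of other genes were not summarised for comparison, so these values are a description. Among 11457 other genes, with the means of each group in each set removed, the patterns most like Ctss were those of Cd53 (r = 0.961) and Plac8 (0.953), leukocyte genes. Ctsc was nearest to Ccr2 (0.951) and Arrb2 (0.950), and Ctsa to B4galnt1 (0.941) and Capg (0.940). Ctsb and Ctsz were nearest to each other (0.957), followed by Cnpy2 for Ctsb (0.945) and Ptpn18 for Ctsz (0.956). Ctsk was nearest to M6pr (0.910), a mannose 6-phosphate receptor, and Tmem19 (0.908), Ctsl to Usp3 (0.881) and Serinc3 (0.876), and Ctsh to Stbd1 (0.894) and Tmem59 (0.865). Ctsf was nearest to Pkp2 (0.852), a desmosome gene of cardiomyocytes, and Cacna1s (0.831), and Ctsd to Des (0.833), which encodes desmin, and Psmg4 (0.807).

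Partners of the cathepsins had smaller fold changes than Ctss and Ctsk. Counts of these lists stand beside 20.9% of all genes that rose and 12.6% that fell by the same rule, or 8.4% and 11.7% without samples 4 to 6. Of 3 further cathepsin genes tested, Ctse rose, with means of 0.184 and 0.0384 FPKM (log2 fold change 0.18, limma, adjusted p = 0.0037), while Ctso (0.11) and Ctsw (0.08) were not past the threshold. Of 5 cystatin and kininogen genes, 3 rose and 0 fell. Cstb, an inhibitor inside the cell, rose by a log2 fold change of 0.47, and Cst3, the secreted cystatin C, from 700 ± 114 to 828 ± 118 FPKM (SD, n = 12 each, log2 fold change 0.24). Cst7, at a mean of 0.256 FPKM in the hypertensive-LVH group, also rose. Of 5 processing partners, Lgmn, the asparaginyl endopeptidase that matures cysteine cathepsins, rose by 0.45 (limma, adjusted p = 0.00574), and Psap, the saposin precursor cleaved by cathepsin D, fell by 0.13 on the log2 scale (limma, adjusted p = 0.0276). Cd74, the invariant chain cleaved by cathepsin S, had a log2 fold change of 0.48 that was not past the threshold (limma, adjusted p = 0.0737). Of 10 genes that sort enzymes to the lysosome, 2 rose and 0 fell, the retromer genes Vps35 (0.25) and Vps29 (0.17). That count of rises is near the share of all genes (20.9%). When samples 4 to 6 were left out, 1 of the cystatin and kininogen genes and 1 of the further cathepsin genes rose, and 0 processing partners and 0 sorting genes rose or fell, so that Lgmn, Psap, Vps35 and Vps29 were no longer past the threshold.

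Other enzymes of the lysosome rose as well. Of 34 further lysosomal hydrolases and their cofactors, 20 rose and 2 fell, with a median log2 fold change of 0.29, against 20.9% and 12.6% of all genes. Acp5, the tartrate-resistant acid phosphatase, rose by 0.87 and the carboxypeptidase gene Scpep1 by 0.71, while Aga fell by 0.17 and Idua fell by 0.15 on the log2 scale. Without samples 4 to 6, 7 rose and 1 fell, against 8.4% and 11.7% of all genes, and the median was 0.11. Of 12 lysosomal membrane genes, 3 rose and 0 fell, with Laptm5, a leukocyte gene, at 0.86 and the tetraspanin Cd63 at 0.52, and 3 rose without samples 4 to 6. The median of this list was 0.07, close to that of all genes (0.05). Of 18 vacuolar ATPase genes, 6 rose and 1 fell (median 0.05), with Tcirg1 (0.63) and Atp6v1h (0.37) the largest and Atp6v0a2 (-0.11) the gene that fell. Of 13 autophagy genes, 5 rose and 1 fell (median 0.06), Bnip3 (0.43) and Sqstm1 (0.30) in front and Map1lc3a (-0.22) falling. Of 5 transcription factors of lysosomal genes, Tfec (0.29) and Zkscan3 (0.21) rose, and Tfeb had a log2 fold change of -0.12 (limma, adjusted p = 0.0558). In the fit that omitted samples 4 to 6, 4 vacuolar ATPase genes, 4 autophagy genes and 2 of these transcription factors rose and 0 fell, so that the falls of Atp6v0a2 and Map1lc3a were lost.

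**Figure D5:**
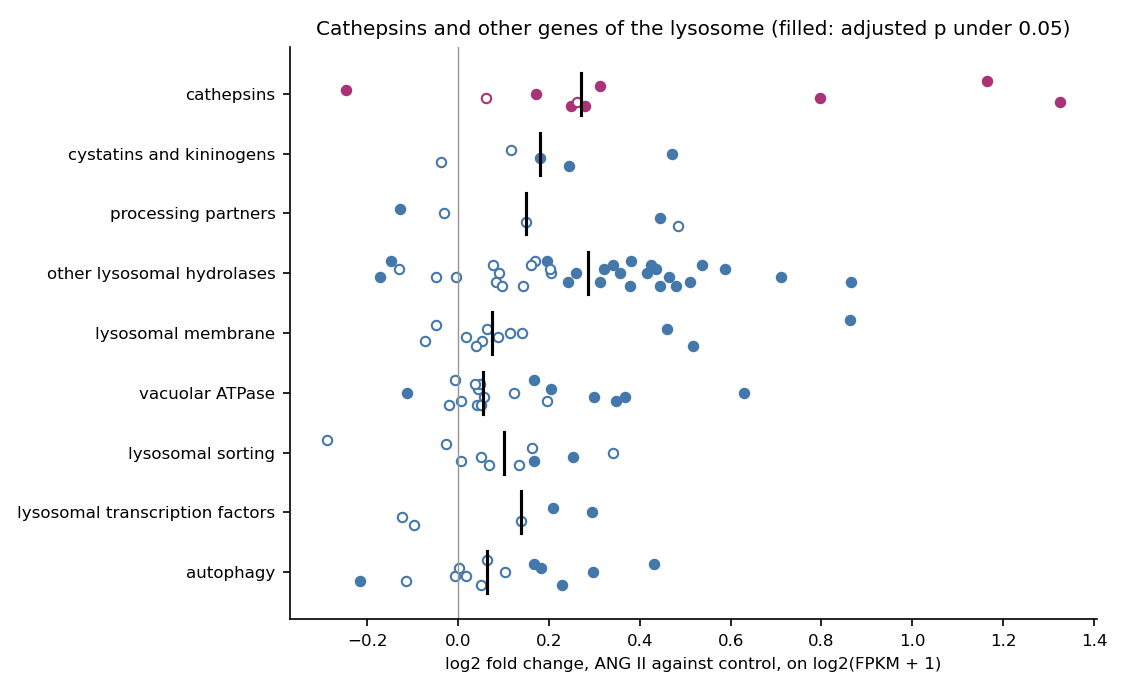
Log2 fold change on the log2(FPKM + 1) scale (horizontal axis) of each gene of the cathepsins and of 8 lists of lysosomal genes, filled where the adjusted p was under 0.05, with a bar at the median of each list. The medians were 0.27 for the cathepsins and 0.29 for the other lysosomal hydrolases, and between 0.05 and 0.18 for the remaining lists.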

How the data were processed

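Left ventricles of 12 ANG II and 12 control mice were analysed by mRNA-seq, and the further samples of each group that the methods count were not analysed here. The authors deposited 1 value per gene and sample, named FPKM. The submitters' processing notes name HISAT, Bowtie2 and RSEM, while versions and genome build are not given in the sources used here. Exact ties and 2741 negative values in the deposited table show a shift and scaling of each gene within 4 sets of samples, a step that the methods do not state. That step used the groups, which no test of the deposited values takes into account.

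Negative values were set to 0 before log2(FPKM + 1). Genes with a mean of at least 0.1 FPKM (14026) were tested with limma 3.58.1 in R 4.3.3, two-sided, with an intensity trend, an adjusted p-value threshold of 0.05 and, where stated, an absolute log2 fold change above 0.5. Permutation tests, with 100000 resamples or all 160000 relabelings within sets, were run in Python 3.11.15 (scipy 1.17.1, numpy 2.4.6, pandas 2.3.3). Scales in the sets were recovered from steps of 0.01 FPKM, and the differences between the groups were then solved with a tolerance of 0.001 of a step. Permutation p-values of single genes are unadjusted. The limma fit and the recovery were tested on simulated data. The methods call the samples of a group biological replicates. Recovering the differences before the adjustment was chosen after seeing the data.

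The members, gene lists and tests were chosen with earlier results of these data known. In each list, up to 2 genes with the largest rise and 2 with the largest fall past the threshold were named, and for each member the 2 genes most like it. Any further gene was named with its values known. Lists covered other cathepsins, cystatins, processing partners, sorting, hydrolases, vacuolar ATPase, membrane, transcription factors, autophagy and 11 cell types. Gene positions are from GENCODE vM21 (GRCm38), where 99.8% of the symbols were found. Promoters are from RefSeq, in windows listed for GRCm38.p6. No genome build can be attached to the FPKM values themselves.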

Additional observations from a re-analysis of the deposited data

Results flagged for a closer look

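The difference between the groups varied with the set of samples for 3 cathepsin genes, by a limma F test of the set-by-group term adjusted over all genes. For Ctsk the adjusted p was 6.85e-05, with log2 differences of 0.30, 3.34, 0.46 and 0.55 in samples 1 to 3, 4 to 6, 7 to 9 and 10 to 12. For Ctss it was 0.0153 (0.34, 2.34, 2.21 and 0.41), and for Ctsz 0.0308 (0.05, 1.83, 0.90 and 0.40). The median log2 difference of all genes was -0.01, 0.18, -0.02 and 0.03 in the same sets, and its part in the variation was not tested. The same test was past the threshold for 7.49% of all genes.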

How the results depend on the processing

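The count of 8 cathepsin genes past the adjusted p-value depended most on the sets of samples. It was 3 without samples 4 to 6 of each group and 5 without samples 7 to 9. The number of all genes past it went from 4697 to 2810 and 3799 in these fits. Without samples 4 to 6, 1 gene (Ctss) in place of 3 met both criteria, and 553 of all genes in place of 831. Ctsc then turned to a log2 fold change of -0.023 (limma, adjusted p = 0.903). Fits with 1 mouse left out gave from 7 to 9 genes past the adjusted p-value and 3 meeting both criteria in each. Quantile normalization gave 9, adding Ctsb (limma, adjusted p = 0.0245), with 4852 of all genes past it. The share of higher genes among all calls moved from 62.3% to 39.6%. Ctsb was also past the threshold without samples 1 to 3 (limma, adjusted p = 0.0205) or 10 to 12 (0.0494). Median-ratio scaling gave 7 and a share of 51.9%, with 4640 of all genes past it. No other amount added, filter or trend changed a call among the 10 genes. On values without a logarithm the log2 threshold has no counterpart, so genes meeting both criteria were not counted there.

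With the mean of each group removed, correlations of same-numbered samples ran from -0.557 to -0.001, and no sample was closest to its own number. Same-numbered samples share a set, and the shift of each gene in a set bears on these correlations. They therefore cannot show whether replicate numbers pair the samples. With the replicate number as a block, 5 genes were past the adjusted p-value, and Ctsh (0.0933), Ctsl (0.0577) and Ctsd (0.119) were not. Depth is unknown, which limits statements on the lowest values, such as the negative ones of Ctsk.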

Other observations

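Markers of further cell types were measured in the same libraries, where 20.9% of all genes rose and 12.6% fell by the limma test. Without samples 4 to 6 these shares were 8.4% and 11.7%. All 5 red blood cell markers rose, led by Hba-a2 (log2 fold change 3.39, with 3 negative values) and Hba-a1 (2.03), and all 5 rose without samples 4 to 6. They summed to 779 to 6443 FPKM in ANG II samples and to 56.2 to 2949 FPKM in control samples. Of 4 smooth muscle markers, Tagln (1.32) and Cnn1 (1.02) rose. Pecam1 rose (0.37) and Kdr fell by 0.23 on the log2 scale among 6 endothelial markers. Of 4 neutrophil markers only Csf3r rose (0.50), and of 5 lymphocyte markers tested Cd3g rose (0.26) and Cd79a fell by 0.25 on the log2 scale. Without samples 4 to 6, 0 smooth muscle markers rose (median log2 fold change 0.19, against 0.63 with all samples), as did 0 neutrophil and 0 lymphocyte markers, while 1 lymphocyte marker fell and 1 endothelial marker rose and 1 fell. None of 5 mast cell, 3 atrial myocyte and 3 adipocyte markers was past the adjusted p-value of limma, where 1 mast cell marker, Kit, had an unadjusted p under 0.05.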
